A study of Homo sapiens with 6 samples.

Results

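Regulators of G protein signalling (RGS) were followed in PA1, a long-established line grown from a human ovarian teratocarcinoma, after knockdown of the transcription factor SOX2. The set holds 10 RGS genes of the 59653 gene symbols in the count table: RGS2, RGS3, RGS4, RGS5, RGS8 and RGS16 of the R4 subfamily, RGS7 of the R7 subfamily, RGS10 of the R12 subfamily, and RGS17 and RGS19 of the RZ subfamily. They were listed by name, and the list was chosen by their counts in the same comparison that is described here: RGS8 had the largest increase among well-measured genes, with a log2 fold change of 3.38 against 3.25 for the next gene, ITGA8, among genes with an average of at least 2 log2 CPM (read counts after scaling for library size). The differences of the 10 genes between the groups are therefore given as a description. No p-value is given for them, and where they are said to have passed or missed the threshold of the fit over all genes, this describes the selected genes and supports nothing. There were 3 libraries from cells transfected with control siRNA (the control group) and 3 from cells transfected with siRNA against SOX2. All 6 came from wildtype PA1 cells that stayed in adherent culture for 24 h after transfection and then grew for 72 h on poly-HEMA, a coating that prevents attachment. The labels name 2 SOX2 siRNAs without saying whether they were mixed. PA1 is a single tumour line, and nothing in the labels says that the numbered replicates were separate cultures, so the spread between libraries may be technical.

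RGS proteins bind the active, GTP-loaded alpha subunits of heterotrimeric G proteins and speed up GTP hydrolysis, which ends the signal that a G protein-coupled receptor has started. R4 proteins such as RGS4, RGS8 and RGS16 are short, consist of little more than the RGS domain, and act mainly on the Gi/o and Gq classes. Several of them are known as genes whose transcript level responds to receptor signalling, and RGS4, RGS7 and RGS8 are best known from neurons, while RGS5 is widely used as a marker of pericytes.

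Depth ranged from 25152313 to 32753184 counts per library, so that 3 counts, taken as the floor below which a gene cannot be told from absent, stood for 0.0908 to 0.12 CPM. SOX2 itself had between 245 and 265 CPM in the control libraries and between 50.6 and 54.9 CPM in the SOX2 siRNA libraries, a log2 fold change of -2.28 (edgeR quasi-likelihood test over all genes, adjusted p = 5.91e-16), which matched the labels. Pluripotency-linked transcripts of this line were abundant: the summed level of 7 such markers was 2430 to 2500 CPM in control and 2284 to 2334 CPM after SOX2 siRNA, with TDGF1 at or under the floor in every library. The sum held opposite changes: PODXL fell from 1314 ± 15.0 to 671 ± 25.1 CPM, while LIN28A rose from 705 ± 3.61 to 1147 ± 10.4 CPM and POU5F1 from 301 ± 18.6 to 339 ± 12.95 CPM (SD, n = 3). DPPA4 and L1TD1 were low, at 3.04 ± 0.0271 and 1.79 ± 0.920 CPM in control. In these bulk libraries a smaller share of cells expressing a gene and less of its RNA per cell cannot be told apart.

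The RGS genes RGS16 and RGS8, next to each other in the family's order on chromosome 1, had the largest differences of the set, and the sequence around their transcription starts is shown for that reason. The windows are 300 bases long and span a RefSeq start, most of their length lying before it (GRCh38.p14), on the minus strand of chromosome 1. All 10 genes had at least 1 such window. RGS8 has 3 annotated starts, of which the most upstream at chr1:182752327-182752626 and the next at chr1:182684538-182684837 are printed. RGS16 has 1 start, at chr1:182604340-182604639. Capitals mark a match to the SOX core sequences CATTGT or CTTTGT, searched on both strands.
RGS8, most upstream start: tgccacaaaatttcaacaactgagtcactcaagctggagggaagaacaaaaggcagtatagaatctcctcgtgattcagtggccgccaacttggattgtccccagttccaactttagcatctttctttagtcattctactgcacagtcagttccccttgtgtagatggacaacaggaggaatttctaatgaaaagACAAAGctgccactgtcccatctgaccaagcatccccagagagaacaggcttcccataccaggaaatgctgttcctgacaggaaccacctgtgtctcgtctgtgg
RGS8, second start: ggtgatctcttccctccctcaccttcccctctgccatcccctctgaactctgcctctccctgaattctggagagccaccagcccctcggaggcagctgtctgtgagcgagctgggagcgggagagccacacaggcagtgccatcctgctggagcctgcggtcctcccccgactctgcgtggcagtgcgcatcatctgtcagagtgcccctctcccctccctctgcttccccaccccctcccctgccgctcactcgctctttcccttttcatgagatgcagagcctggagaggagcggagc
RGS16: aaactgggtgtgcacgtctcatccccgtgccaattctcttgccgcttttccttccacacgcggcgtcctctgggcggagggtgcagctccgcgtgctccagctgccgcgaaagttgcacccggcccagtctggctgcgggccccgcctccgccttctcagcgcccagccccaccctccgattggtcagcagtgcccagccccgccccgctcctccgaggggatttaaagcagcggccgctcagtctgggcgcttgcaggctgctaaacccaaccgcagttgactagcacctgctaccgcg

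The most upstream RGS8 window held 1 SOX core match, 55 bases before the start. The other RGS8 windows and the RGS16 window held none. A match of this kind was also found in 3 of the 5 windows of RGS3, in 1 of the 4 of RGS4 and in 1 of the 2 of RGS10, and in no window of RGS2, RGS5, RGS7, RGS17 or RGS19. Of 35116 windows of this length in the RefSeq table, 24.5% held at least 1 match, 10.8% to CATTGT and 16.1% to CTTTGT. The octamer ATGCAAAT, which POU-family factors bind, was in none of the windows of the 10 genes and in 1.77% of all windows. These matches describe letters only; the gene-level counts do not tell which start was used. The RGS16 window was rich in G and C (67% of bases, 26 CG dinucleotides), while the most upstream RGS8 window was not (47.3%, 3 CG dinucleotides).

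RGS8 had the fewest reads of the 9 tested genes in control and many more after SOX2 siRNA. It had 42, 22 and 39 counts in control replicates 1 to 3, or 1.27, 0.877 and 1.35 CPM. After SOX2 siRNA it had 370, 452 and 324 counts, or 12.2, 14.0 and 10.8 CPM. Every SOX2 siRNA library was far above every control library, and the lowest control library, replicate 2, was also the shallowest. The group means were 1.17 ± 0.252 and 12.3 ± 1.57 CPM (SD, n = 3), a 10.6-fold ratio and a log2 fold change of 3.38 (SE 0.147). RGS8 encodes an R4 protein that accelerates GTP hydrolysis on Gi/o subunits and is abundant in cerebellar Purkinje cells. Its spread within the control group was close to counting error, with a coefficient of variation of 21.7% against 17.1% from counting alone, while in the SOX2 siRNA group 12.7% stood against 5.12%.

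RGS16, the R4 gene beside RGS8 on chromosome 1, was already present in control cells and rose to 3.32 times its control level. Its values were 9.93, 7.90 and 9.85 CPM in the control libraries and 32.9, 30.3 and 28.7 CPM in the SOX2 siRNA libraries. The groups did not overlap, and replicate 2 was again the lowest control library. RGS16 acts on Gi and Gq subunits and is itself induced by receptor and growth factor signals in many cells. Its log2 fold change was 1.72 (SE 0.0826).

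RGS5 took the most reads of any RGS gene in both groups. It had 60.9, 63.0 and 62.9 CPM in control and 103, 109 and 113 CPM after SOX2 siRNA. The libraries of a group lay close together and the groups were clearly apart, with means of 62.3 ± 1.18 and 109 ± 4.94 CPM (SD, n = 3) and a log2 fold change of 0.80 (SE 0.0431). RGS5 restrains Gi and Gq signalling in the vessel wall, where it marks pericytes. Among 10 markers of pericytes and smooth muscle 7 were tested, 2 were called higher and none lower: PDGFRB rose from 28.5 ± 0.998 to 106 ± 0.387 CPM and MCAM from 36.1 ± 2.58 to 52.9 ± 2.14 CPM (SD, n = 3; adjusted p = 2.66e-15 and 6.52e-07 in the edgeR fit), whereas CSPG4, ACTA2, TAGLN, NOTCH3 and DES did not pass the test. Of all tested genes 28.2% were called, 14.8% higher and 13.4% lower, and nothing is read from the count in this list. The pericyte genes KCNJ8 and ABCC9 were at 0 in every control library and at most 5 counts in any SOX2 siRNA library. The summed level of the 10 markers was 339 to 377 CPM in control and 446 to 463 CPM after SOX2 siRNA. PDGFRB carried most of that difference. The part of these markers in the RGS5 result was not tested. The reference annotation (GENCODE 29) holds a second, non-coding gene under the name RGS5, on the same strand with 534 shared exon bases, so the count for this symbol may include reads from both.

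RGS2 was the exception among the R4 genes and fell. It had 19.5, 19.1 and 17.8 CPM in control and 13.8, 14.9 and 15.1 CPM in the SOX2 siRNA libraries. No library of one group reached the other, and the means were 18.8 ± 0.907 and 14.6 ± 0.698 CPM (SD, n = 3; log2 fold change -0.37, SE 0.0675). RGS2 differs from its relatives in its preference for Gq over Gi.

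RGS3 and RGS4 complete the R4 genes of the set. RGS3, which also exists in long forms with added domains, had 16.2, 15.4 and 15.8 CPM in control and 18.8, 19.5 and 19.0 CPM after SOX2 siRNA, without overlap (log2 fold change 0.28, SE 0.0617). RGS4, a regulator of Gi and Gq known from neurons, had 1.76, 1.75 and 1.94 CPM in control and 2.38, 2.22 and 2.51 CPM after SOX2 siRNA. The RGS4 groups also did not overlap, but with 44 to 75 counts per library the log2 fold change of 0.38 (SE 0.168) did not pass the threshold over all genes.

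Outside the R4 subfamily RGS10 had the largest difference of the set. RGS10, a short R12 protein that acts on Gi subunits, rose from 10.2, 10.8 and 11.96 CPM to 15.1, 14.2 and 14.8 CPM (log2 fold change 0.42, SE 0.0771), with no overlap. RGS17, an RZ protein that acts on Gz and Gi/o, had 5.30, 5.14 and 5.53 CPM in control and 6.19, 6.27 and 6.86 CPM after SOX2 siRNA; the groups did not overlap, and the log2 fold change of 0.27 (SE 0.102) did not pass the threshold over all genes. RGS19, the RZ protein that binds GIPC1, had 3.87 CPM in each control library and 3.01, 3.71 and 3.98 CPM after SOX2 siRNA. The RGS19 groups overlapped, the log2 fold change was -0.12 (SE 0.14), and the control libraries lay closer together than counting error alone would give (coefficients of variation of 0.0842% and 9.44%). RGS7, an R7 protein that needs the beta subunit GNB5 for its stability, had 0 counts in every library except SOX2 siRNA replicate 3, which had 1; it lay under the floor in each and was not tested.

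**Figure D1:**
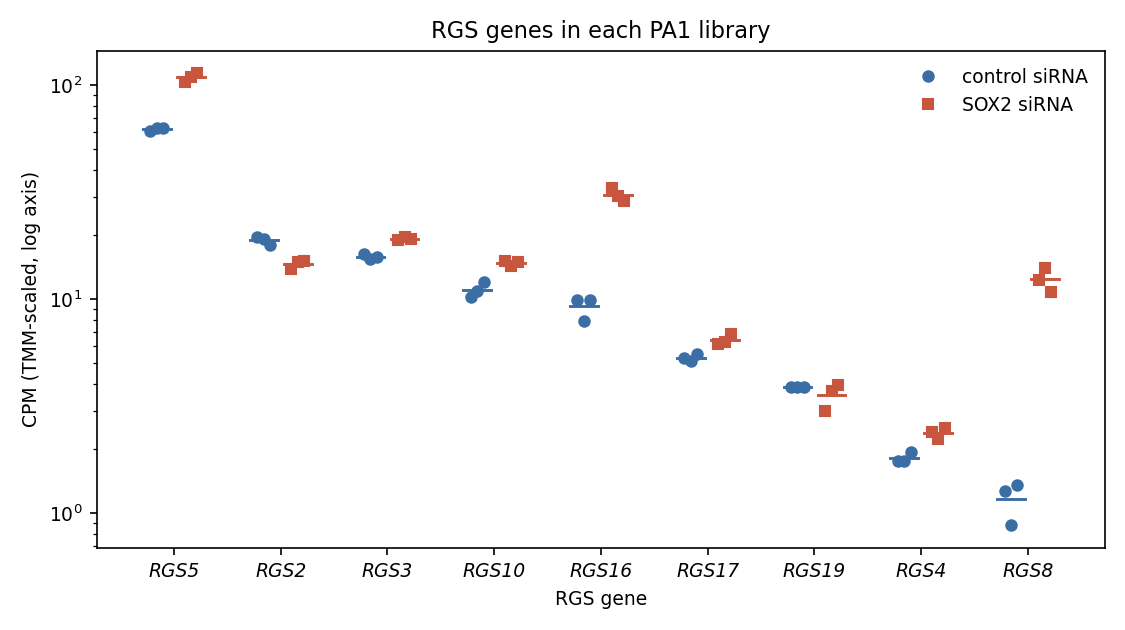
Level of each tested RGS gene in every library, as TMM-scaled CPM on a log axis; blue circles are the 3 control libraries, red squares the 3 SOX2 siRNA libraries (replicates 1 to 3 from left to right) and lines the group means. RGS8 lies at 0.877 to 1.35 CPM in control and 10.8 to 14.0 CPM after SOX2 siRNA, while the RGS19 libraries of the groups overlap.

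Of the 10 genes, 9 passed the filter on low counts, and 6 of these had an adjusted p under 0.05 in the edgeR fit over 17592 genes, where 28.2% of all tested genes did. In the upward direction 5 of 9 were called (RGS3, RGS5, RGS8, RGS10, RGS16), against 14.8% of tested genes, and in the downward direction 1 (RGS2), against 13.4%. For 8 of the 9 no library of either group reached the other, against 41.8% of tested genes. Because the genes were listed with this contrast in view, these shares say nothing further about the family. The median log2 fold change of the 9 was 0.38, and that of all tested genes was near 0, at -0.00084. Leaving out any 1 library moved RGS8 between 3.24 and 3.49, RGS16 between 1.63 and 1.78 and RGS2 between -0.41 and -0.33, and changed the call of none of the 9 genes.

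**Figure D2:**
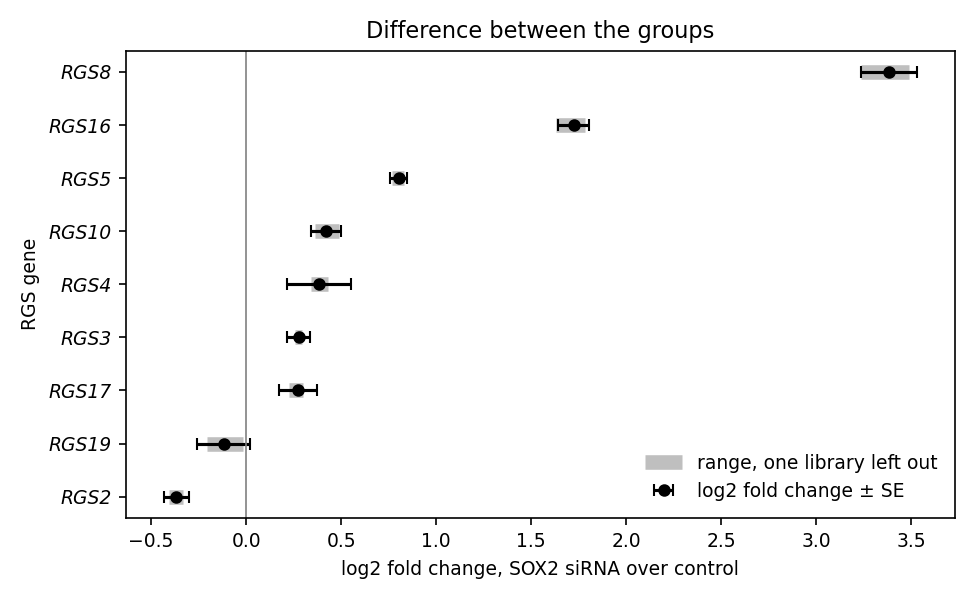
Log2 fold change of each tested RGS gene (SOX2 siRNA over control); points are the edgeR estimate with its standard error, and grey bars the range over the 6 fits that each left out 1 library. RGS8 (3.38), RGS16 (1.72) and RGS5 (0.80) stand highest and RGS2 (-0.37) lowest.

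Compared per length of transcript, the order of the genes changed between the groups. With the longest coding transcript of each gene in GENCODE 29 as its length, RGS2 (13.9 ± 0.670 CPM per kilobase) and RGS10 (12.9 ± 1.06) led in control and overlapped, followed by RGS5 (10.6 ± 0.201), then RGS16 (3.80 ± 0.474) and RGS3 (3.43 ± 0.0917), which overlapped, and RGS19 (2.43 ± 0.00205). RGS17 (0.685 ± 0.0249), RGS4 (0.548 ± 0.0314) and RGS8 (0.208 ± 0.0450) came last without overlap (SD, n = 3). After SOX2 siRNA the order was RGS5 (18.5 ± 0.842), RGS10 (17.3 ± 0.537), RGS16 (12.6 ± 0.880), RGS2 (10.8 ± 0.515) and RGS3 (4.16 ± 0.0756); RGS5 and RGS10 overlapped. RGS19 (2.24 ± 0.313) and RGS8 (2.203 ± 0.280) then overlapped each other, above RGS17 (0.828 ± 0.0467) and RGS4 (0.716 ± 0.0429). The order depends on which transcripts were present, which these counts do not show. With the median coding transcript as the length, RGS5 led in control at 66.7 CPM per kilobase, RGS17, RGS4 and RGS8 overlapped from neighbour to neighbour at the low end, and RGS8 reached 10.8 CPM per kilobase after SOX2 siRNA, level with RGS2.

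The reads of all 20 canonical RGS genes were summed to see which genes carried the difference; such sums weigh long transcripts more. The sum was 181, 178 and 181 CPM in control and 262, 268 and 265 CPM after SOX2 siRNA. All 3 SOX2 siRNA libraries lay above all 3 control libraries, with a difference of the means of 84.7 CPM. RGS5 made up 54.7% of that net difference, RGS16 25.3% and RGS8 13.2%. RGS8 took 0.646% ± 0.134 of RGS reads in control and 4.66% ± 0.567 after SOX2 siRNA, and RGS16 5.12% ± 0.592 and 11.6% ± 0.900, whereas the share of RGS2 was 10.45% ± 0.557 and 5.51% ± 0.220 (SD, n = 3). By subfamily, the 10 R4 genes summed to 108 to 110 CPM in control and 184 to 190 CPM after SOX2 siRNA. The 3 R12 genes summed to 47.2 to 49.5 and 51.6 to 55.5 CPM. The 4 R7 genes summed to 9.60 to 10.4 and 11.3 to 11.4 CPM. Neither sum overlapped between the groups, and of single tested genes 41.8% did not overlap. Within R12 the difference of the means was 3.7 CPM for RGS10, 2.3 CPM for RGS12 and -0.72 CPM for RGS14. In R7 it was largest for RGS9, at 1.16 CPM. RGS12, RGS14 and RGS9 were not called. The 3 RZ genes overlapped between the groups, at 12.1 to 12.4 and 11.3 to 12.6 CPM.

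**Figure D3:**
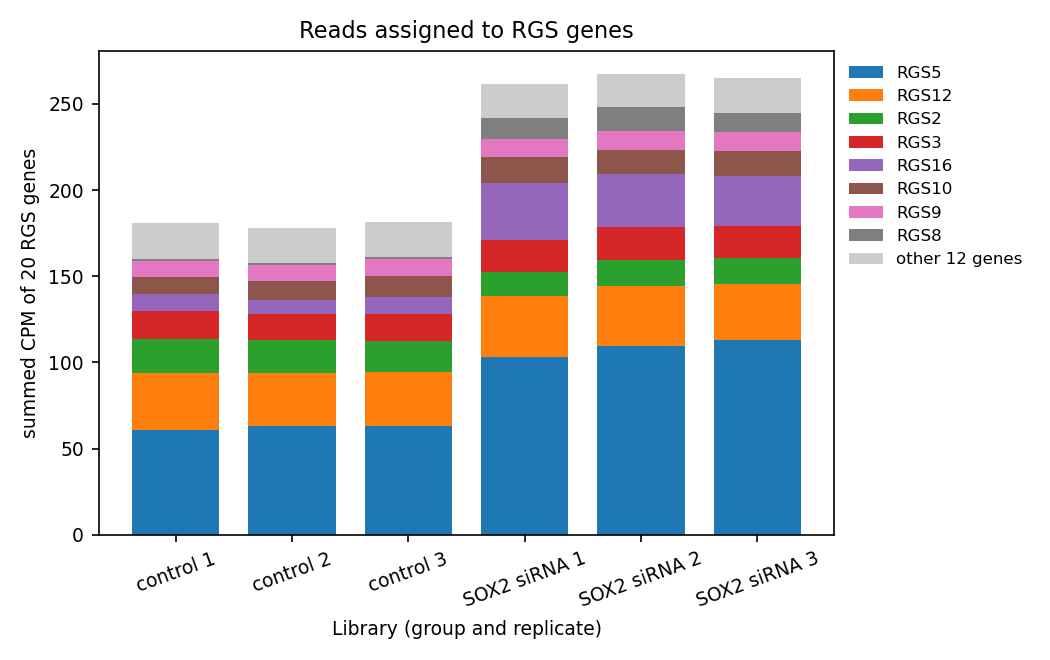
Summed CPM of the 20 canonical RGS genes in each library, stacked by gene, for control replicates 1 to 3 and SOX2 siRNA replicates 1 to 3. The bars of the control libraries reach 178 to 181 CPM and those of the SOX2 siRNA libraries 262 to 268 CPM, and the RGS5, RGS16 and RGS8 segments are taller after SOX2 siRNA.

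Of the 11 RGS genes outside the set, 5 were tested and 1 was called. RGS20, an RZ gene, fell: its level was 3.13 ± 0.226 CPM in control and 1.93 ± 0.168 CPM after SOX2 siRNA (SD, n = 3), which gave a log2 fold change of -0.70 (adjusted p = 0.00289 by edgeR). RGS12, RGS9, RGS14 and RGS11 had log2 fold changes of 0.10, 0.16, -0.20 and 0.50 and were not called. RGS18 and RGS21 had 0 counts in all libraries, and RGS1, RGS6, RGS13 and RGS22 were too low to test.

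Of the 20 canonical RGS genes, 10 lie on chromosome 1 in the RefSeq annotation, in the order RGS4, RGS5, RGS16, RGS8, RGS18, RGS21, RGS1, RGS13, RGS2 and RGS7. The adjacent RGS16 and RGS8 had the highest log2 fold changes of the set, while NPL, the nearest tested gene beyond RGS8 (0.17, SE 0.0943), was not called. The non-coding gene LINC01686, between RGS16 and RGS8, rose by 0.91 on the log2 scale, from 0.770 ± 0.122 to 1.46 ± 0.253 CPM (SD, n = 3). Its adjusted p by edgeR was 0.00805. RGS4 and RGS5 are also adjacent, with 0.38 and 0.80, and their outer neighbours HSD17B7 (0.08) and NUF2 (0.13) were not called. Beside RGS2, which follows RGS18, RGS21, RGS1 and RGS13 in that order, UCHL5 (-0.10) and RPS27AP5 (0.14) were not called. Of the neighbours of RGS3 on chromosome 9, ZNF618 was lower (-0.30, adjusted p = 1.65e-05 by edgeR) and C9orf43 (0.26) was not called.

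Other genes of the G protein pathway, none of them in the set of 10, were counted from lists of proteins that RGS proteins act on or beside, with the 11 further RGS genes among them. Of 134 listed genes 96 were tested, and 45 of these (46.9%) were called, 32 higher and 13 lower, against 28.2% of all tested genes and 34.9% of those with an average of at least 2 log2 CPM. Their median log2 fold change was 0.09. Nothing particular to the lists is read from these shares. Each adjusted p given for them is the Benjamini-Hochberg value of the edgeR test over all genes.

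Among receptors, which activate the G proteins, 9 of 22 tested genes were called, 6 higher and 3 lower, with a median of -0.03. APLNR, which encodes the receptor for apelin, rose most of the tested receptors, with 39.0 ± 1.41 CPM in control and 209 ± 12.1 CPM after SOX2 siRNA (2.42 on the log2 scale). The endothelin receptor gene EDNRB fell from 366 ± 11.96 to 188 ± 7.02 CPM (-0.96, adjusted p = 3.92e-12), and LPAR1, a receptor for lysophosphatidic acid, rose from 6.70 ± 0.762 to 10.6 ± 0.394 CPM (0.67, adjusted p = 3.83e-05; SD, n = 3).

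Alpha subunits, the substrates of RGS proteins, had small differences where they were called. Of 11 tested genes 4 were called, all higher, with log2 fold changes of 0.12 (GNAI2, GNA13) to 0.15 (GNAS, GNA11). The Gi gene GNAI2 had 249 ± 6.75 CPM in control and 271 ± 5.71 after SOX2 siRNA, the Gq-class gene GNA11 47.7 ± 1.73 and 53.0 ± 2.37 CPM, and the Gs gene GNAS 674 ± 20.9 and 748 ± 15.0 CPM (SD, n = 3; adjusted p = 0.0146, 0.0255 and 0.00316). Just 1 of the 4 calls was left without control replicate 2, SOX2 siRNA replicate 2 or SOX2 siRNA replicate 3, where GNAI2 had adjusted p-values of 0.0586, 0.0824 and 0.0557 and GNA11 of 0.105, 0.0978 and 0.105; GNA11 was also not called without control replicate 3 (0.0506) or by DESeq2 (0.0598). GNA13 was not called without control replicate 1 (0.0993), control replicate 2 (0.081), SOX2 siRNA replicate 2 (0.0798) or SOX2 siRNA replicate 3 (0.0712). GNAI1, GNAI3, GNAQ, GNA12 and GNAZ, the last of these the gene of Gz, a substrate of RGS17, did not pass the test. The neuronal Go gene GNAO1 was low, at 0.621 ± 0.137 and 0.420 ± 0.105 CPM. Of 13 tested beta and gamma subunit genes 3 were called: GNG7 was lower (-0.37, adjusted p = 1.06e-04), and GNG11 (0.24, adjusted p = 0.00581) and GNG3 (0.83, adjusted p = 0.0211) were higher. GNG3 was near 1 CPM and lost its call without control replicate 2 (0.0706), control replicate 3 (0.0785) or SOX2 siRNA replicate 3 (0.115) and by DESeq2 (0.114); without SOX2 siRNA replicate 1 the list had 5 calls.

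Effectors downstream of the subunits were the list with the highest median, 0.46: of 11 tested genes 8 were called higher and 1 lower. The adenylyl cyclase genes ADCY6, which rose from 49.0 ± 0.828 to 68.4 ± 1.61 CPM (log2 fold change 0.48, adjusted p = 1.38e-07), and ADCY2, from 4.01 ± 0.284 to 8.27 ± 0.145 CPM (1.04, adjusted p = 5.22e-07), were among these, as was the Gq-activated phospholipase gene PLCB4, from 84.2 ± 4.26 to 115 ± 0.534 CPM (0.46, adjusted p = 2.01e-07; SD, n = 3). ADCY1 was the effector that fell (-0.63). The Gi-opened potassium channel genes KCNJ3 and KCNJ9 had 0 counts throughout, and KCNJ5 and KCNJ6 were too low to test.

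Further regulators moved in both directions. Of 7 tested receptor kinase and arrestin genes, GRK5 rose by 1.08 on the log2 scale, from 13.1 ± 1.03 to 27.6 ± 0.663 CPM (SD, n = 3, adjusted p = 1.33e-09), ARRB1 was higher (0.24) and GRK3 lower (-0.16). Of 7 tested exchange and inhibition factors 4 were higher and 1 lower: the Gi-binding GoLoco genes GPSM1 (1.32) and GPSM3 (0.62) rose and CCDC88C (-0.27) fell. The SOX2 siRNA libraries were spread for GPSM1, at 7.58, 5.75 and 4.92 CPM, all above the control values of 2.63, 2.27 and 2.35 CPM. Of 9 tested genes of other proteins with an RGS-like domain 4 were higher and 2 lower, the lower ones being AXIN2 (-0.41) and SNX13 (-0.45); SNX25 had the highest value (0.28).

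Partners and breakdown enzymes of RGS proteins were also counted. Of 5 tested partner genes 2 were higher and 2 lower. The lower ones were PPP1R9A and GPR158, an orphan receptor that holds RGS7 at the membrane (-0.87). GIPC1, the partner of RGS19, was higher (0.20, adjusted p = 0.0111) and so was the spinophilin gene PPP1R9B (0.20), while its relative PPP1R9A fell (-0.47, adjusted p = 2.29e-06). GNB5, on which RGS7 and RGS9 depend, had 30.1 ± 1.60 and 30.1 ± 2.02 CPM (SD, n = 3). Without control replicate 2, control replicate 3 or SOX2 siRNA replicate 2 the partner list had 2 calls, and GIPC1 had adjusted p-values of 0.0609, 0.056 and 0.054. GPR158, near 1 CPM, lost its call in these fits too (0.0699, 0.15 and 0.108), and without control replicate 1 (0.0689), without SOX2 siRNA replicate 3 (0.144) and by DESeq2 (0.148). Of 6 enzymes of the N-degron route, by which proteins such as RGS4, RGS5 and RGS16 are degraded, only METAP2 was called, and it was lower by a small amount (-0.13, adjusted p = 0.00925); ADO, ATE1, UBR1 and UBR2 lay between -0.002 and 0.023. Exons of GNG3, GNAS, GNA11, GPSM1, SNX25, PPP1R9B, ADCY2, ADCY6, ARRB1 and EDNRB overlap a gene on the opposite strand in GENCODE 29 and those of AXIN2 and GPSM3 a gene on the same strand, and with the use of strand not given in the sources used here their counts are uncertain to that extent.

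**Figure D4:**
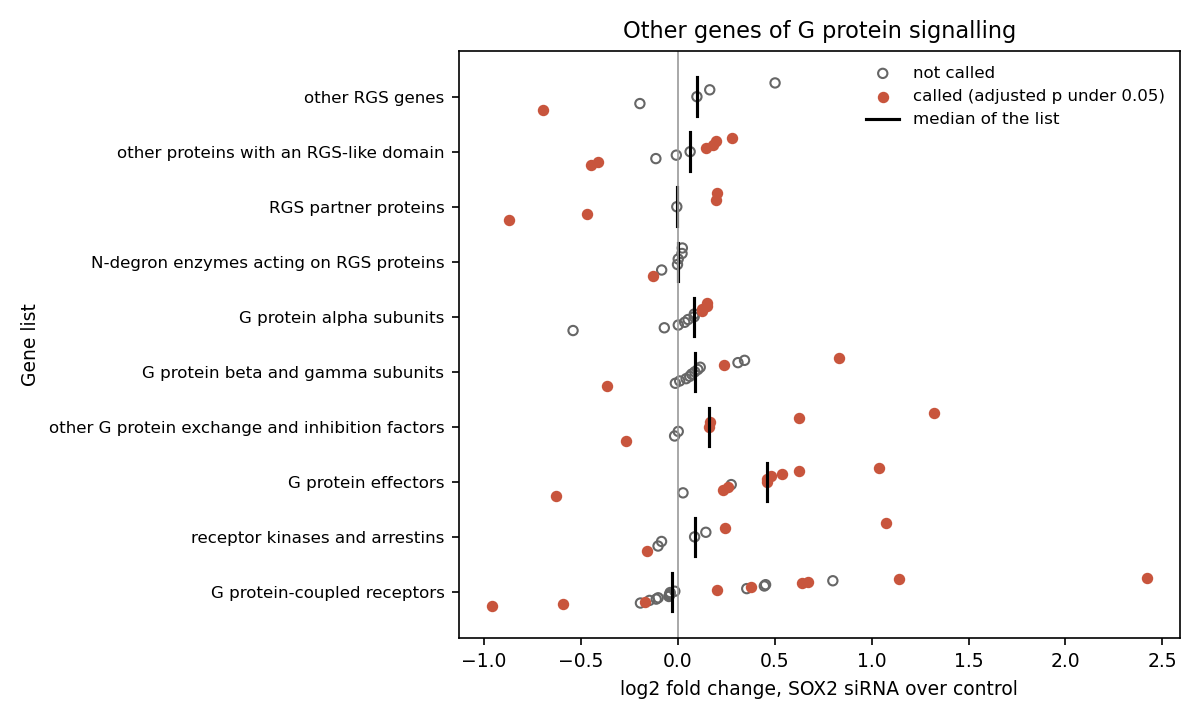
Log2 fold change (SOX2 siRNA over control) of each tested gene in 10 lists of G protein signalling genes; filled red points are genes called at an adjusted p under 0.05, open points genes not called, and black lines list medians. The effector list has its median at 0.46 and the alpha subunits lie close to 0, apart from GNAO1 (-0.54, not called), with 4 called genes at 0.12 to 0.15.

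Neuronal markers moved in both directions. Of 8 such markers 4 were tested: TUBB3 was higher (0.74), MAP2 (-0.91) and SYT1 (-0.20) were lower and SNAP25 was not called, although SYT1 lost its call in 11 of the 15 alternative fits (adjusted p up to 0.202, edgeR without SOX2 siRNA replicate 3), while RBFOX3, STMN2, ELAVL3 and ELAVL4 had at most 3 counts in every library. The summed level of the list was 174 to 187 CPM in control and 132 to 135 CPM after SOX2 siRNA. MAP2 carried this fall, with 131 ± 10.7 CPM in control and 69.8 ± 1.59 CPM after SOX2 siRNA (SD, n = 3). Of 6 endothelial markers 5 were tested and all 5 were called lower, with log2 fold changes from -0.71 to -0.14. TEK had the smallest of these and was called narrowly (adjusted p = 0.0455 by edgeR), and CLDN5 was at 0 throughout. Of 7 fibroblast markers 5 were tested, 3 were called higher (0.19 to 0.46) and none lower. Over all tested genes 14.8% were called higher and 13.4% lower, and nothing about cell types is read from these counts. The 6 blood markers summed to 1.98 to 18.4 CPM over all libraries. Their part in the RGS results was not tested.

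The genes whose pattern over the 6 libraries was most like that of RGS8 were sought among 12116 other genes with an average of at least 2 log2 CPM. By Pearson correlation of log2 CPM the nearest were KCTD15 (0.9998), MICAL1 (0.999), LCP1 (0.999), CXXC5 (0.998) and PBX3 (0.998). These values mostly reflect the split into the same groups. The 5 genes had log2 fold changes of 0.58 to 0.76, well under that of RGS8.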

How the data were processed

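The 6 libraries were made from mRNA with a KAPA mRNA HyperPrep kit after Trizol extraction, per the labels' protocols. The authors deposited a table of raw counts per gene symbol, 1 column per library, whose values are whole numbers. Per the submitters' processing notes, bcl2fastq 2.20.0, STAR 2.7.3a, Salmon 0.14.1, DESeq2 1.28.1 and the build GRCh38.p13 were used; the counting step, the use of strand, the annotation and any rounding of estimated counts are not given in the sources used here. Columns were matched to libraries by the identifier in each description.

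Genes were kept by edgeR's filterByExpr (minimum count 10) and scaled by TMM (factors 0.992 to 1.01). The test, run across all genes, was edgeR's quasi-likelihood F-test on group (robust=TRUE), adjusted by Benjamini-Hochberg with a threshold of 0.05; standard errors come from its F statistic. The common dispersion was 0.00218. Replicates differed by 2.77 to 5.91 times counting noise (chi-square per degree of freedom), so none looked like a repeat. Tools were R 4.3.3, edgeR 4.0.16, limma 3.58.1, DESeq2 1.42.0 and Python 3.11.15. On simulated data with 200 of 17332 genes changed, edgeR recovered 56% at 1.25-fold, 92% at 1.5-fold and 96% at 2-fold. That simulation changed far fewer genes than were called in the data and left the lowest genes unchanged. Its dispersions were set by level alone, so these rates may not hold for the real libraries. Floors of 3 counts cover counting error only, since reads without molecular identifiers are not independent molecules. With 3 against 3 libraries an exact permutation test cannot give a p below 0.1 and was not used.

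The members and lists were chosen with earlier results of these data known. Genes named are the 10 members, SOX2, in each pathway list the called genes with the 3 smallest p-values, the nearest tested genes of R4 members, and the 5 genes most correlated with RGS8; other named list members were added after their values were seen. A neighbouring gene that this rule would name is not reported here. Transcript lengths and overlaps are from GENCODE 29, promoter windows from RefSeq (GRCh38.p14). Alternatives were other scalings, other filters, DESeq2, limma-voom, robust=FALSE, the replicate number as a block and each library left out.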

Additional observations from a re-analysis of the deposited data

How the results depend on the processing

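Between 3760 and 5212 genes were called over the alternatives. The 6 calls among the RGS genes were made under each of the 15 alternative fits, none of the 9 log2 fold changes reversed, and RGS8 ranged from 3.24 to 3.49. These genes, those named by the rule for the pathway lists and 13 further called genes named in the text were followed. Under the alternatives 36 of their 720 log2 fold changes lost their call and 0 reversed. The 720 include RGS4, RGS17 and RGS19, which were not called in the main fit and had no call to lose. The losses were in GIPC1, GPR158, GNAI2, GNA11, GNA13, GNG3 and SYT1. TEK, which was called narrowly, was not among the genes followed. Of the pathway genes 45 were called, and 50 in the fit with the replicate block, where the beta and gamma subunits had 6 calls in place of 3; they also had 6 with no filter beyond 1 count, and from 2 to 5 when 1 library was left out. Same-numbered libraries correlated at 0.11, -0.0059 and 0.0017 in their deviations from the group means, so the numbers were not taken as pairs. Differently numbered libraries ranged from -0.151 (control 1 with SOX2 siRNA 2) to 0.155 (control 3 with SOX2 siRNA 2). Whether a batch lies behind these values was not tested. The replicate block kept the SOX2 log2 fold change at -2.28 and changed no other call count by over 1.5 times, but SYT1 lost its call (adjusted p = 0.0535, edgeR). With upper-quartile scaling the N-degron enzymes had 2 calls in place of 1. Leaving out 1 library gave 1 to 4 calls among alpha subunits and 2 to 4 among partner proteins. Of the mean levels, that of RGS19 in control moved by more than its very small spread without TMM scaling, to 3.88 CPM. The cause was not tested in any of these cases. The transcript-length alternative was chosen after seeing the data. Depth limits RGS7, which lies under the floor of 3 counts, and RGS4 and RGS8 in control, with 22 to 58 counts per library.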

Other observations

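The place of RGS8 as the largest increase depends on how well measured a gene is required to be. Over all 17592 tested genes it ranked 14 by log2 fold change, at an average of at least 0 log2 CPM it ranked 5, at 1 it ranked 3 and at 2 it ranked 1. At 3 it was no longer among the genes compared, since its own average was 2.80. At the limit of 2 it stayed first under all other fits, except limma-voom, where SLX1B-SULT1A4 came first and RGS8 had rank 2.

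Among the RGS genes outside the set, RGS12 and RGS9 took more reads in control cells than most of the genes in it. RGS12 had 31.8 ± 1.15 CPM in control and 34.1 ± 1.76 after SOX2 siRNA, and RGS9, best known from the retina and striatum, 9.68 ± 0.435 and 10.8 ± 0.157 CPM (SD, n = 3). Their shares of RGS reads were 17.65% and 5.37% in control and 12.9% and 4.09% after SOX2 siRNA. The membrane anchors that hold R7 proteins, RGS9BP and RGS7BP, had at most 2 counts in any library.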
